A study of Mus musculus with 18 samples.

Results

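The 41 genes described here encode components of transforming growth factor beta (TGF-beta) and bone morphogenetic protein (BMP) signalling: 3 TGF-beta ligands, 5 BMP ligands, 2 activin subunits, 3 TGF-beta receptors, 7 BMP or activin receptors, 7 Smad proteins, 4 Id genes, 4 latent TGF-beta binding proteins, 4 secreted antagonists and 2 intracellular or membrane inhibitors. They were taken by gene symbol from the 52489 deposited identifiers that matched the mouse annotation, and each of the 41 had 1 entry. Of these, 38 had enough reads to be tested among 16471 genes. Inhba, Nog and Grem1 did not, and are described by their reads.

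Ligands of the TGF-beta superfamily are secreted dimers that bring together type I and type II receptor kinases at the cell surface. Receptors for TGF-beta and activin mainly phosphorylate Smad2 and Smad3, and receptors for BMPs phosphorylate Smad1, Smad5 and Smad9; both groups pair with Smad4 and enter the nucleus. TGF-beta itself is secreted in a latent complex bound to a latent TGF-beta binding protein, and in the mammary gland it is best known as a restraint on ductal growth.

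Gene counts came from 18 RNA sequencing libraries of sorted mammary epithelium, 6 from each of 3 populations. HSL are hormone-sensing luminal cells, sorted as CD49f low and CD61 negative. AP are alveolar progenitors, the luminal cells sorted as CD49f low and CD61 positive. Basal cells, the outer layer of the ducts, were CD49f high and CD61 positive. All 3 came from untreated nulliparous MMTV-Cre animals, 12 weeks of age, so the Cre transgene, driven by a viral promoter active in mammary epithelium, is shared by every library. The titles number the samples 1 to 6 in each population, and the design text gives 6 animals. Whether a number stands for 1 animal is not stated in the labels, so the p-values measure the spread between these samples.

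Libraries held 26515200 to 52403133 gene counts in HSL, 37390477 to 62503032 in AP and 29898247 to 91092224 in basal. Levels are CPM, counts scaled to the library size with TMM factors, and for each population the lowest, median and highest of 6 libraries or the mean ± SD are given. Fold changes are log2 ± standard error from edgeR's quasi-likelihood test, with p-values adjusted over all 16471 genes by the Benjamini-Hochberg method and calls made at 0.05. Markers of each sorted population were highest in the libraries of that label, for 6 of 6 genes in each list. The 3 libraries of sample 1 stood apart on the third principal component, with scores of 90.87 in HSL, 89.31 in AP and 76.05 in basal, against -54.77 to 19.47 for the other 15. In the HSL library of sample 1 the summed basal markers reached 159 CPM, against 32.8 to 64.6 in the other 5 HSL libraries. Its summed AP markers were 685 CPM against 185 to 489, and its summed HSL markers were 2751 CPM against 5047 to 6844. These are bulk samples, so fewer cells of a type and less RNA per cell cannot be told apart.

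The members stood mostly highest in basal libraries. Of 38 tested, 25 had their highest mean in basal (65.8%, against 39.5% of all genes), 7 in HSL (18.4%, against 35.6%) and 6 in AP (15.8%, against 24.9%). In 12 members (31.6%) the lowest basal library was above every HSL and AP library, against 11.3% of all genes: Tgfbr1, Tgfbr3, Bmp6, Bmp7, Acvr2a, Smad1, Smad6, Id4, Ltbp2, Ltbp4, Fst and Bambi. The same held for HSL in 2 members, Tgfb1 and Bmpr1b (5.26%, against 6.08% of all genes), and for AP in 1, Id2 (2.63%, against 2.99%).

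Between HSL and basal libraries, 35 of 38 members were called (92.1%, against 58.4% of all genes): 9 stood above basal, against 27.8% of all genes, and 26 below, against 30.6%. Their median log2 fold change was -1.14, against -0.064 over all genes. Between AP and basal libraries, 6 members stood above basal (21.5% of all genes did) and 20 below (23.1% did), which is 68.4% called against 44.7%, with a median of -0.74 against -0.001. Between HSL and AP, 9 members were above AP (19.8% of all genes) and 15 below (20.1%), which is 63.2% called against 39.9%, with a median of -0.42 against -0.011. With a fold of at least 2 as well, 6 members were above and 21 below basal in HSL (15.5 and 21.9% of all genes), 5 above and 17 below basal in AP (12.1 and 15.9%), and 6 above and 12 below AP in HSL (8.45 and 13.5%). Libraries of the 2 populations did not overlap in 26 members for HSL and basal (36.9% of all genes), 16 for AP and basal (25.9%) and 15 for HSL and AP (20.6%). The comparisons share libraries with each other and are not independent. In all 3 comparisons 14 members were called (36.8%, against 16.2%), and 37 in at least 1 (97.4%, against 70.7%). The exception, Bmp4, averaged 1.1 ± 0.713 CPM in HSL, 1.06 ± 0.615 in AP and 1.14 ± 0.482 in basal libraries. Other genes overlap 25.9% of the Bmp4 span but 3.96% of its exon bases. Without sample 1, 9 of the same 38 members stood above and 26 below basal in HSL, 7 above and 19 below basal in AP, and 9 above and 20 below AP in HSL.

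**Figure D1:**
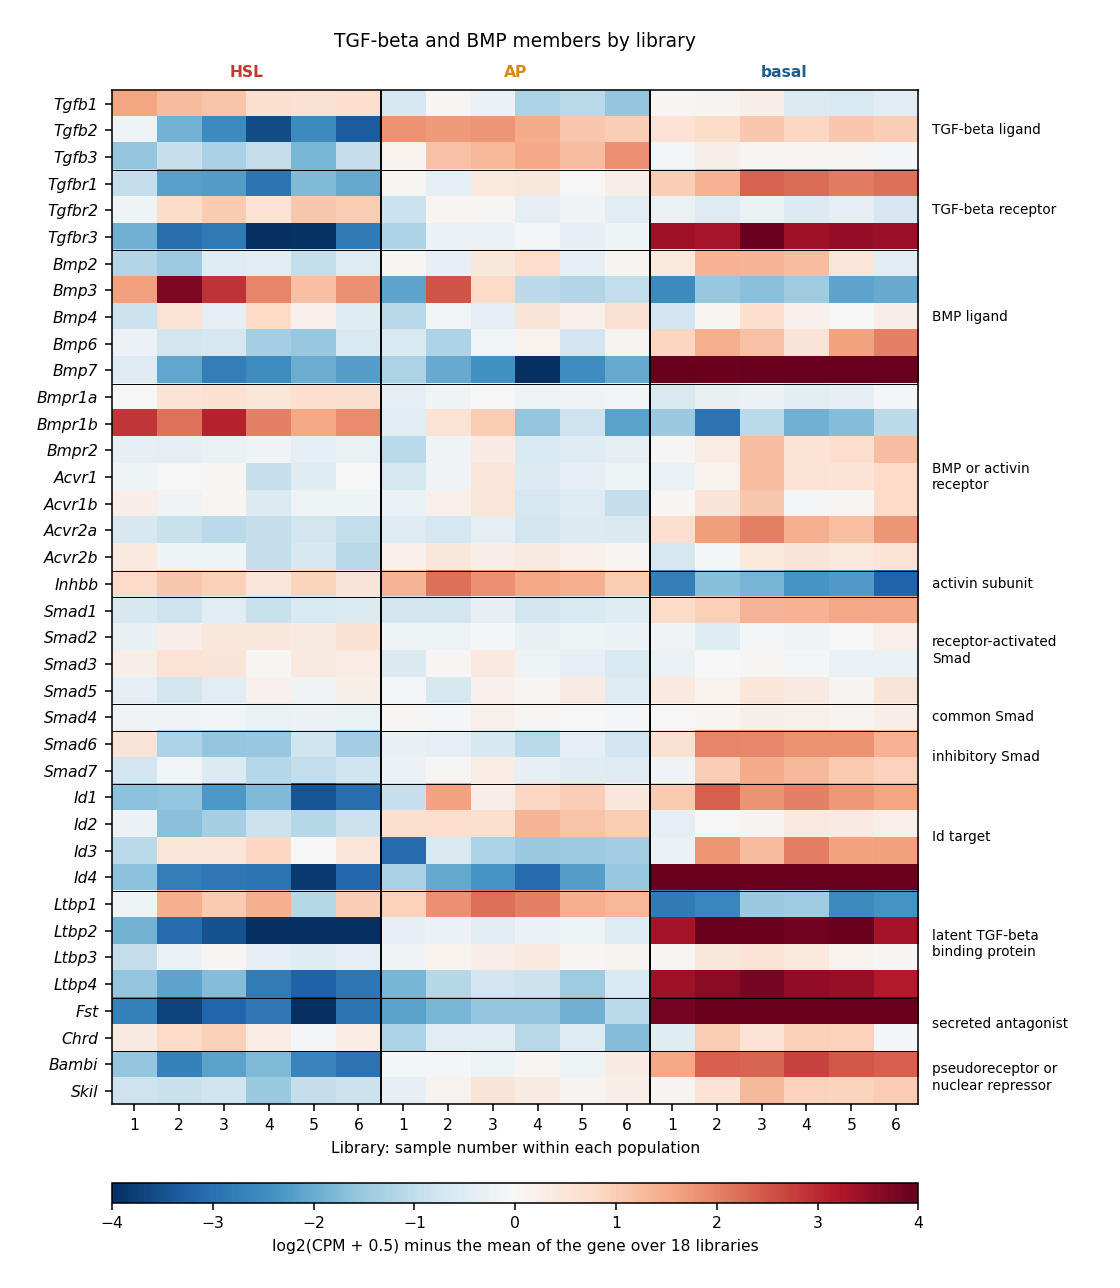
Level of each of the 38 members tested in each of 18 libraries, as log2(CPM + 0.5) minus the mean of that gene over all libraries (colour, drawn to 4 in either direction). Columns are the sample numbers within HSL, AP and basal, and rows are grouped by role. Most rows are highest in the 6 basal columns, 25 of 38 by mean, with Tgfb1, Tgfbr2, Bmp3, Bmpr1a and Bmpr1b highest in HSL and Tgfb3, Inhbb, Id2 and Ltbp1 highest in AP.

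Among the TGF-beta ligands, Tgfb1 was highest in HSL libraries, and Tgfb2 and Tgfb3 were lowest there. Tgfb1 (chr7:25687002-25705077, GRCm38) stood at 45.2, 56.7 and 88.6 CPM in HSL (lowest, median, highest), 9.8, 16.1 and 30.4 CPM in AP and 19.2, 26.3 and 34.5 CPM in basal libraries. No HSL library overlapped either other population, and HSL was 3.33-fold above AP (log2 1.73 ± 0.27, adjusted p = 7.02e-05) and 2.3-fold above basal (1.20 ± 0.27, adjusted p = 0.00088). AP was not called against basal (-0.53 ± 0.27, adjusted p = 0.115), but blocking on the sample number gave an adjusted p of 0.00246. In every population samples 1 to 3 lay above samples 4 to 6 for this gene: 65.8 to 88.6 against 45.2 to 47.6 CPM in HSL, 18.3 to 30.4 against 9.8 to 13.8 in AP, and 31.1 to 34.5 against 19.2 to 21.6 in basal libraries. This split was seen in 1 of the 38 members (2.63%), against 1.94% of all genes tested. HSL was above AP by a log2 fold change of 1.55 within samples 1 to 3 (adjusted p = 0.00953) and 1.93 within samples 4 to 6 (adjusted p = 9.63e-06).

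Tgfb2 (chr1:186622792-186705989) was low in HSL, at 1.01, 2.6 and 15.1 CPM, against 35.1, 53.7 and 62 CPM in AP and 26.2, 33.4 and 37.9 CPM in basal libraries. Every HSL library lay below every AP and basal library. HSL was 11.1-fold below AP (-3.48 ± 0.51, adjusted p = 3.5e-05) and 7.26-fold below basal (-2.86 ± 0.50, adjusted p = 7.73e-05). The highest HSL value was that of sample 1, and without sample 1 the log2 fold changes were -4.36 and -3.86. AP and basal were not called apart (0.62 ± 0.46, adjusted p = 0.3).

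Tgfb3 (chr12:86056745-86079041) was highest in AP libraries. It stood at 81.9, 133 and 152 CPM in HSL, 322, 702 and 1042 CPM in AP and 273, 302 and 344 CPM in basal libraries. The HSL libraries were the lowest without overlap, 5.69-fold below AP (-2.51 ± 0.22, adjusted p = 2.73e-07) and 2.41-fold below basal (-1.27 ± 0.21, adjusted p = 5.62e-05). AP was 2.36-fold above basal (1.24 ± 0.21, adjusted p = 0.000117), and 1 AP library, that of sample 1, lay within the basal range. Other genes overlap 56.4% of its exon bases, so its level is uncertain. Per kilobase of exon, Tgfb3 was the highest of the 3 ligands in every population, at 36.9 ± 9 CPM per kb in HSL, 210 ± 69.9 in AP and 89.1 ± 7.31 in basal libraries. Tgfb1 stood at 12.1 ± 3.49, 3.62 ± 1.61 and 5.25 ± 1.36 CPM per kb in the same order of populations, and Tgfb2 at 0.775 ± 0.921, 8.72 ± 2.05 and 5.69 ± 0.825. Values per kilobase assume that reads fell in exons, whereas the deposited gene widths include introns.

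The receptors for TGF-beta also differed between the populations. Tgfbr1 (chr4:47353222-47414931), the type I receptor kinase, was at 7.53, 13.5 and 30.8 CPM in HSL, 46.3, 66.3 and 82.4 CPM in AP and 120, 265 and 309 CPM in basal libraries. The 3 populations did not overlap: HSL was 14.7-fold below basal (-3.88 ± 0.32, adjusted p = 9.54e-09) and 4.22-fold below AP (-2.08 ± 0.29, adjusted p = 2.38e-05), and AP was 3.48-fold below basal (-1.80 ± 0.29, adjusted p = 5.49e-05). Tgfbr2, the type II kinase that binds the ligand first, was highest in HSL instead. It was at 229, 482 and 543 CPM in HSL, 143, 219 and 276 CPM in AP and 164, 191 and 218 CPM in basal libraries. HSL was 2.28-fold above basal without overlap (1.19 ± 0.19, adjusted p = 3.94e-05) and 2-fold above AP (1.00 ± 0.19, adjusted p = 0.000468). AP and basal were not called apart (0.19 ± 0.19, adjusted p = 0.455), but were without sample 1 (0.33, adjusted p = 0.0485). The lowest HSL value was that of sample 1.

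Tgfbr3 (chr5:107106570-107289629), which encodes betaglycan, a coreceptor that presents ligand to the kinases and also binds inhibin, had the widest range of the receptors. It stood at 3.04, 7.83 and 16.2 CPM in HSL, 25.7, 53.7 and 60.9 CPM in AP and 630, 684 and 988 CPM in basal libraries, with no overlap between any pair of populations. HSL was 93-fold below basal (-6.54 ± 0.39, adjusted p = 1.96e-10), AP 14.6-fold below basal (-3.86 ± 0.34, adjusted p = 4.54e-08) and HSL 6.39-fold below AP (-2.67 ± 0.33, adjusted p = 5.62e-06). Per kilobase of exon, Tgfbr2 was the highest of the 3 receptors in HSL, at 53.9 ± 15 CPM per kb, and in AP, at 26.9 ± 6.2. In basal libraries Tgfbr3 was the highest, at 112 ± 20 CPM per kb, with Tgfbr1 at 35.7 ± 11.6 and Tgfbr2 at 23.6 ± 2.79.

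Among the BMP ligands, Bmp7 marked basal libraries and Bmp3 HSL libraries. Bmp7 (chr2:172868012-172940321), a ligand of the osteogenic group, was at 1.27, 2.22 and 7.97 CPM in HSL, 0.268, 2.11 and 4.51 CPM in AP and 181, 256 and 375 CPM in basal libraries. Both luminal populations lay wholly below the basal one, HSL by 85.6-fold (-6.42 ± 0.58, adjusted p = 3.12e-08) and AP by 118-fold (-6.88 ± 0.59, adjusted p = 2.8e-08). Bmp3 (chr5:98854415-98884396), a divergent ligand known as an antagonist of osteogenic BMPs, was at 20.9, 33.7 and 121 CPM in HSL, 1.65, 4.05 and 51.6 CPM in AP and 1.08, 2.09 and 2.95 CPM in basal libraries. HSL lay above basal in every library, by 24.2-fold (4.60 ± 0.78, adjusted p = 6.02e-05), and AP overlapped both other populations. AP was 6.36-fold above basal (2.67 ± 0.72, adjusted p = 0.00538), which became a log2 fold change of 1.53 without sample 2, whose AP library held the 51.6 CPM. It was 3.47 in samples 1 to 3 and 0.90 in samples 4 to 6, and limma-voom gave an adjusted p of 0.106. Summed HSL markers reached 1754 CPM in the AP library of sample 2 and 1607 in that of sample 3, against 323 to 1045 in the other 4 AP libraries; their part in the Bmp3 level was not tested. HSL against AP gave 1.93 ± 0.69 (adjusted p = 0.0334), 2.69 without sample 2 (adjusted p = 0.0011), and was not called without sample 3, 4, 5 or 6.

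The remaining BMP ligands were scarce. Bmp6 (chr13:38345107-38500302) reached 0.282, 0.873 and 1.41 CPM in HSL, 0.453, 1.27 and 1.99 CPM in AP and 2.75, 5.13 and 8.58 CPM in basal libraries. Its basal libraries lay above all others, with HSL lower by 6.51-fold (-2.70 ± 0.44, adjusted p = 3.75e-05) and AP by 4.06-fold (-2.02 ± 0.43, adjusted p = 0.000749). Bmp2 averaged 0.787 ± 0.353 CPM in HSL, 1.97 ± 0.742 in AP and 3.59 ± 1.73 in basal libraries, with HSL lower than basal (-2.19 ± 0.41, adjusted p = 0.000174) and than AP (-1.33 ± 0.40, adjusted p = 0.014).

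Inhbb (chr1:119415465-119422248), which encodes the activin beta B subunit, was a luminal gene in these libraries. It stood at 109, 140 and 164 CPM in HSL, 160, 222 and 363 CPM in AP and 8.05, 15.2 and 23.8 CPM in basal libraries. Both luminal populations lay above every basal library, HSL by 8.6-fold (3.10 ± 0.25, adjusted p = 7.52e-09) and AP by 15.2-fold (3.93 ± 0.26, adjusted p = 1.06e-09). HSL was 1.77-fold below AP with overlap (-0.82 ± 0.23, adjusted p = 0.00815). Inhba, which encodes the beta A subunit, had 2 reads in all HSL, 8 in all AP and 7 in all basal libraries. Other genes overlap 100% of its exon bases, so these few reads do not show how much of it was expressed.

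**Figure D2:**
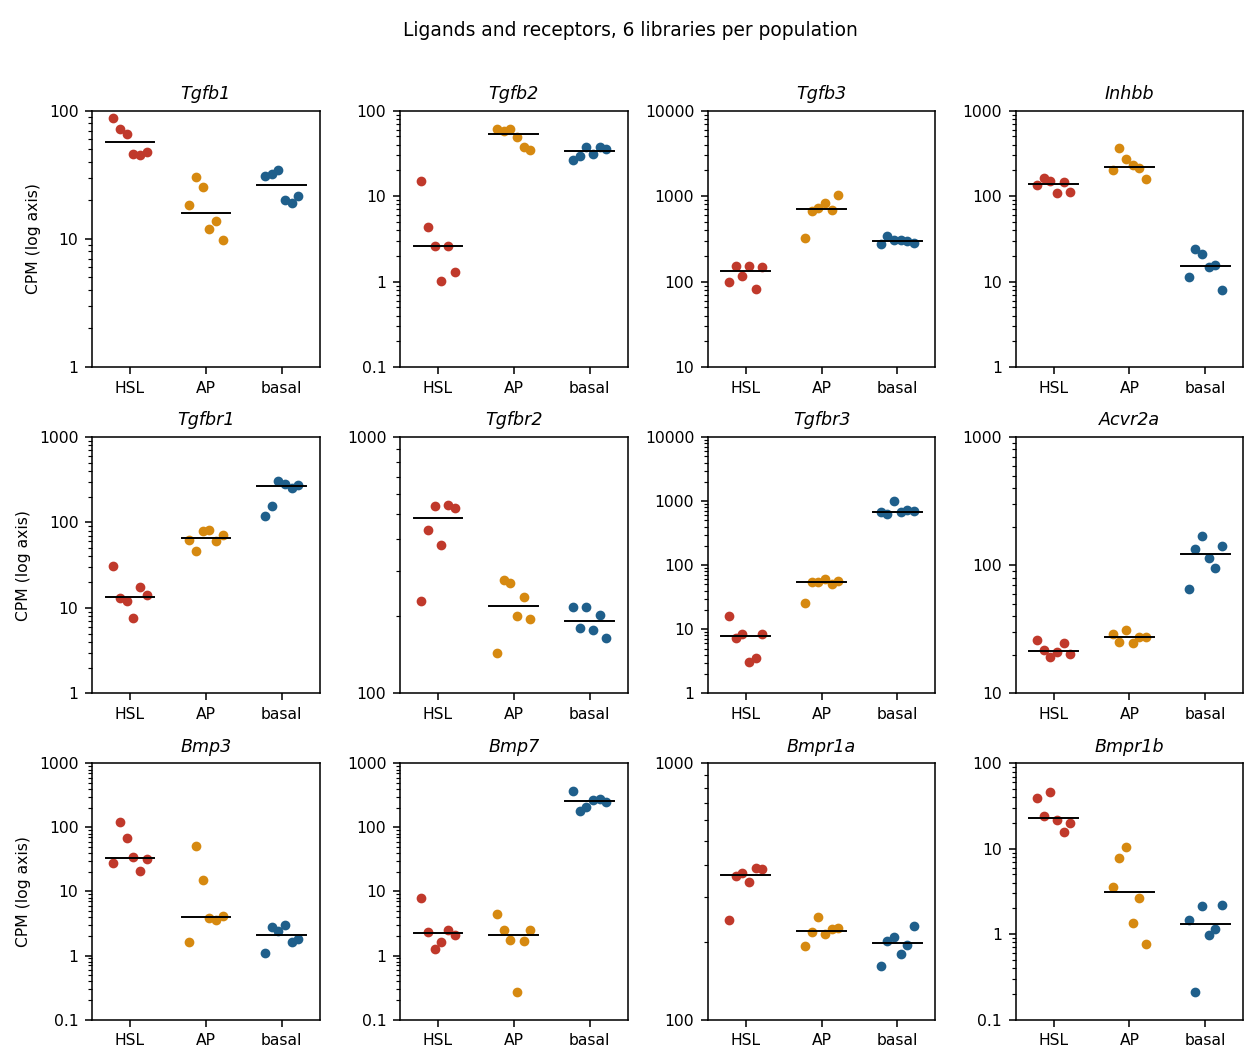
CPM (log axis) of 12 ligands and receptors in each library, as points, for HSL, AP and basal in that order from left to right within a panel; within a population samples 1 to 6 run from left to right and bars mark medians. Tgfbr3 has medians of 7.83, 53.7 and 684 CPM, Bmp7 of 2.22, 2.11 and 256 CPM, and Bmpr1b of 23, 3.12 and 1.31 CPM in that order.

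Of the 7 BMP and activin receptors, 2 were called higher in HSL than in basal libraries (Bmpr1a and Bmpr1b), as were 27.8% of all genes. The 4 called lower were Bmpr2, Acvr1, Acvr2a and Acvr2b, against 30.6% of all genes. Bmpr1b (chr3:141837136-142169425), a type I kinase, was at 15.7, 23 and 46.1 CPM in HSL, 0.766, 3.12 and 10.6 CPM in AP and 0.209, 1.31 and 2.19 CPM in basal libraries. HSL lay above both without overlap, 20.8-fold against basal (4.38 ± 0.64, adjusted p = 1.05e-05) and 6.24-fold against AP (2.64 ± 0.58, adjusted p = 0.00147). AP was called above basal (1.74 ± 0.58, adjusted p = 0.0197), but not without sample 2 (adjusted p = 0.0921) or sample 3 (adjusted p = 0.0551), nor with limma-voom (adjusted p = 0.0753). The log2 fold change was 2.58 in samples 1 to 3 and 0.21 in samples 4 to 6 (adjusted p = 0.732). The 2 highest AP values, 7.77 and 10.6 CPM, were those of samples 2 and 3, the AP libraries with the highest summed HSL markers, whose part in this result was not tested. Bmpr1a, the other type I kinase of this pair, averaged 350 ± 54.1 CPM in HSL, 222 ± 18.7 in AP and 197 ± 24.3 in basal libraries, with HSL above basal (0.83 ± 0.12, adjusted p = 7.74e-06) and above AP (0.66 ± 0.12, adjusted p = 0.000227). Per kilobase of exon it was the highest of the 7 BMP and activin receptors in each population, at 55.1 ± 8.52 in HSL, 35 ± 2.94 in AP and 31 ± 3.83 in basal libraries.

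Acvr2a (chr2:48814109-48903269), a type II receptor for activins and some BMPs, was at 19.1, 21.3 and 26.1 CPM in HSL, 24.6, 27.5 and 31.3 CPM in AP and 64.7, 123 and 168 CPM in basal libraries. Both luminal populations lay below all basal libraries, HSL by 5.38-fold (-2.43 ± 0.18, adjusted p = 2.27e-09) and AP by 4.34-fold (-2.12 ± 0.18, adjusted p = 1.82e-08). Bmpr2, the type II receptor specific to BMPs, averaged 20 ± 1.17 CPM in HSL, 19.4 ± 6.75 in AP and 41.4 ± 14 in basal libraries, with HSL and AP lower by 2.07-fold (adjusted p = 0.000614) and 2.13-fold (adjusted p = 0.000657). The type I receptor Acvr1 averaged 37.5 ± 8.85 CPM in HSL, 38.1 ± 12.5 in AP and 65.4 ± 23.6 in basal libraries, and was called lower in HSL (adjusted p = 0.00917) and in AP (adjusted p = 0.0144, but 0.0529 without sample 5 and 0.0677 without sample 6). Acvr1b, a type I receptor for activin, averaged 5.52 ± 1.1, 5.12 ± 2.2 and 8.36 ± 2.87 CPM in HSL, AP and basal libraries; the lower AP level had an adjusted p of 0.0451 and lost its call without sample 1, 2, 4, 5 or 6. Acvr2b, the second activin type II receptor, averaged 6.42 ± 2.79, 10 ± 1.02 and 10 ± 2.95 CPM in the same order, and its lower HSL level against basal (adjusted p = 0.0447) was lost without sample 2, 3, 4, 5 or 6 and when blocking on the sample number (adjusted p = 0.0605).

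Smad1 and Smad5, which relay BMP signals, were lower in HSL than in basal libraries, and Smad2 and Smad3, which relay TGF-beta and activin, were slightly higher. Smad1 averaged 78.9 ± 9.17 CPM in HSL, 82.3 ± 10.2 in AP and 302 ± 62.4 in basal libraries, and its highest luminal library, 99.5 CPM, lay below its lowest basal one, 212 CPM. HSL was 3.82-fold below basal (-1.93 ± 0.14, adjusted p = 1.76e-09) and AP 3.67-fold (-1.87 ± 0.14, adjusted p = 3.96e-09). Smad5 averaged 54.5 ± 14, 58.6 ± 15 and 78 ± 9.17 CPM in HSL, AP and basal libraries, and was called only for HSL against basal (-0.52 ± 0.18, adjusted p = 0.0204), a call lost without sample 1 (adjusted p = 0.0519) or sample 3 (adjusted p = 0.0768). Blocking on the sample number, AP was also called below basal (adjusted p = 0.0335). Smad2 averaged 105 ± 20.1, 73.2 ± 4.43 and 78.7 ± 11.9 CPM in HSL, AP and basal libraries, with HSL above basal by 1.34-fold (adjusted p = 0.00949) and above AP by 1.44-fold (adjusted p = 0.00344). Smad3 averaged 96.5 ± 12.3, 67.2 ± 19 and 69.4 ± 7.05 CPM in the same order, with HSL above basal by 1.39-fold (adjusted p = 0.0119) and above AP by 1.44-fold (adjusted p = 0.0105); neither call held without sample 6. Smad4, the partner of both branches, varied least among the Smads, at 186 ± 8.36 CPM in HSL, 218 ± 13.5 in AP and 236 ± 18.1 in basal libraries, with HSL 1.27-fold below basal without overlap (-0.34 ± 0.08, adjusted p = 0.000859) and 1.17-fold below AP (-0.23 ± 0.08, adjusted p = 0.0235, not called without sample 4 or 5).

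Both inhibitory Smads, which are themselves induced by the pathway and turn receptors off, stood highest in basal libraries. Smad6 (chr9:63953076-64022059), which acts mainly against BMP signals, was at 3.66, 4.35 and 16.9 CPM in HSL, 5.18, 8.08 and 9.26 CPM in AP and 17.9, 41.4 and 46.2 CPM in basal libraries. All luminal libraries lay below the basal ones, HSL by 5.63-fold (-2.49 ± 0.36, adjusted p = 1.1e-05; -3.21 without sample 1, which gave the highest HSL value) and AP by 4.85-fold (-2.28 ± 0.36, adjusted p = 4.49e-05). HSL was not called below AP (-0.22 ± 0.35, adjusted p = 0.651), but was without sample 1 (-0.73, adjusted p = 0.00469). Smad6 lies 195 kb from Smad3 on chromosome 9, whose order across the populations was different. Smad7, which acts on both branches, averaged 31.2 ± 8.66 CPM in HSL, 44.8 ± 10.4 in AP and 103 ± 33.8 in basal libraries, with HSL 3.3-fold lower (-1.72 ± 0.24, adjusted p = 6.33e-06) and AP 2.3-fold lower (-1.20 ± 0.24, adjusted p = 0.000392). HSL against AP was not called for Smad7 (adjusted p = 0.0855), and was when blocking on the sample number (adjusted p = 0.0445) and without sample 1 (adjusted p = 0.0417).

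The Id genes encode helix-loop-helix proteins without a DNA-binding region, which hold back other factors of that class and are textbook targets of BMP signals. The 4 paralogues did not share an order across the populations. Id1 (chr2:152736251-152737410) was at 1.82, 5.74 and 7.91 CPM in HSL, 13, 39.2 and 76.5 CPM in AP and 51.7, 85.6 and 132 CPM in basal libraries. The HSL libraries were below all others, 16.7-fold against basal (-4.06 ± 0.43, adjusted p = 2.33e-07) and 7.78-fold against AP (-2.96 ± 0.41, adjusted p = 1.88e-05). AP overlapped basal and was 2.15-fold lower (-1.10 ± 0.38, adjusted p = 0.0244), a call lost without sample 3, 4 or 6.

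Id2 was highest in AP libraries, with 21.1, 34.4 and 58.1 CPM in HSL, 108, 125 and 176 CPM in AP and 53.3, 76.9 and 90.6 CPM in basal libraries. AP lay above every other library, 1.75-fold over basal (0.81 ± 0.21, adjusted p = 0.00337), and HSL was 3.73-fold below AP (-1.90 ± 0.21, adjusted p = 2.05e-06) and 2.13-fold below basal (-1.09 ± 0.21, adjusted p = 0.000187). Id3 (chr4:136143497-136145755) was lowest in AP instead, with 93.6, 276 and 354 CPM in HSL, 23, 72.9 and 132 CPM in AP and 166, 613 and 812 CPM in basal libraries. AP lay 7.42-fold below basal without overlap (-2.89 ± 0.40, adjusted p = 1.14e-05), HSL was 3.25-fold above AP (1.70 ± 0.39, adjusted p = 0.00184), and HSL was 2.28-fold below basal with overlap (-1.19 ± 0.38, adjusted p = 0.0124, but 0.0528 without sample 5). So HSL against AP went in opposite directions for Id2 and Id3, each past the threshold over all samples. Within samples 1 to 3 alone the Id2 call held and the Id3 call was lost (adjusted p = 0.265). Sample 1 gave the lowest Id3 value in each population.

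Id4 (chr13:48261228-48266026) was low in both luminal populations and high in basal libraries. It stood at 0.125, 0.682 and 2.31 CPM in HSL, 0.553, 1.53 and 3.13 CPM in AP and 186, 279 and 474 CPM in basal libraries. HSL was 319-fold lower than basal (-8.32 ± 0.58, adjusted p = 1.43e-09) and AP 163-fold lower (-7.34 ± 0.55, adjusted p = 5.65e-09). HSL against AP was not called (-0.97 ± 0.47, adjusted p = 0.11), but was when blocking on the sample number (adjusted p = 0.0176) and without sample 1 (adjusted p = 0.00879). Other genes overlap 29.1% of the Id4 span and 20.1% of its exon bases. Per kilobase of exon, Id3 was the highest of the 4 in HSL at 137 ± 50.1 CPM per kb and in basal at 312 ± 124, and Id2 the highest in AP at 54.4 ± 11.5.

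The start regions of Id2, of Id3 and Id4, and of Smad6 are given because these genes are textbook BMP targets that took different orders: Id2 peaked in AP, and the other 3 in basal libraries. Each is 300 bases, from 250 before to 50 after the RefSeq start (GRCm38.p6), on the strand of the gene, and capitals mark the GC-rich motifs GGCGCC and GCCGNCGC, which BMP-activated Smads are known to bind. The windows are chr12:25096043-25096342 (minus strand) for Id2, chr4:136143572-136143871 (plus) for Id3, chr13:48260866-48261165 (plus) for Id4 and chr9:64022010-64022309 (minus) for Smad6.
Id2: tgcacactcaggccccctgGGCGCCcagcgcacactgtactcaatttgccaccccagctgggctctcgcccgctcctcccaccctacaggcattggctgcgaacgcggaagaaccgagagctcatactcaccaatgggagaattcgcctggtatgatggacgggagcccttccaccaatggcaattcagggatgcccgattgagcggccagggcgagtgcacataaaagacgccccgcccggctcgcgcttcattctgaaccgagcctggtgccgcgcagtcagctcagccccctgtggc
Id3: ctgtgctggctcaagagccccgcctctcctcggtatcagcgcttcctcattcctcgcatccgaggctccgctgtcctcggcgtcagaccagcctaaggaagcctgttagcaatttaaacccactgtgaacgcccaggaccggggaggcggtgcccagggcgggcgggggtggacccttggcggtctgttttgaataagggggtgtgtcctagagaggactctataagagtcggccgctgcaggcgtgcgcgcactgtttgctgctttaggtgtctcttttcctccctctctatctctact
Id4: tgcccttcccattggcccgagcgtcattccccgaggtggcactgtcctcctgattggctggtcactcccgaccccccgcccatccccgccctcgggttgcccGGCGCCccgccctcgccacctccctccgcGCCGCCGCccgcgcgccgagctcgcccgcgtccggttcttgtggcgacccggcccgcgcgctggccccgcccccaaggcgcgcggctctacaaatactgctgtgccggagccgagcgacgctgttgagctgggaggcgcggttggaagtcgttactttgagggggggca
Smad6: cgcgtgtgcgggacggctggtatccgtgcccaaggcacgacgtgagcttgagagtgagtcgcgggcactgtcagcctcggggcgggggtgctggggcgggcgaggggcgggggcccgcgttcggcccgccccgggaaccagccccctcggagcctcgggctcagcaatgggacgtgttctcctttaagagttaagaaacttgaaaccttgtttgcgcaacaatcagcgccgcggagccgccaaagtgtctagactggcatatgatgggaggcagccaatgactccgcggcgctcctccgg

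Searched on both strands, GGCGCC occurred 1 time in the Id2 window and 1 time in the Id4 window, and GCCGNCGC 1 time in the Id4 window, where the 2 motifs do not overlap. Of 32544 windows of this length, 11.9% hold GGCGCC and 9.84% hold GCCGNCGC. The Smad binding element CAGAC occurred 2 times in the Id3 window and in none of the other 3, against 49.5% of all windows with at least 1. An E-box, CANNTG, the site of the factors that Id proteins hold back, occurred 1 time in the Id2 window and 1 time in the Smad6 window, against 72.3% of all windows.

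Of the latent TGF-beta binding proteins, which tether the latent ligand to the extracellular matrix, Ltbp1, Ltbp2 and Ltbp4 differed between basal and both luminal populations. Ltbp2 (chr12:84783212-84876532), the member of the family known not to bind latent TGF-beta itself, was at 5.39, 8.46 and 32.1 CPM in HSL, 83.8, 97.7 and 104 CPM in AP and 1192, 1880 and 2138 CPM in basal libraries. No pair of populations overlapped: HSL was 139-fold below basal (-7.12 ± 0.44, adjusted p = 3.32e-10; -7.78 without sample 1, the highest HSL library), AP 18.1-fold below basal (-4.18 ± 0.38, adjusted p = 7.16e-08) and HSL 7.67-fold below AP (-2.94 ± 0.37, adjusted p = 6.32e-06). Ltbp4 (chr7:27305136-27337692) followed the same order, at 5.08, 9.26 and 17.1 CPM in HSL, 13.8, 25.8 and 33.4 CPM in AP and 466, 592 and 724 CPM in basal libraries. HSL lay 56.6-fold below basal (-5.82 ± 0.33, adjusted p = 1.23e-10) and AP 24-fold (-4.59 ± 0.31, adjusted p = 1.68e-09), both without overlap, and HSL 2.36-fold below AP (-1.24 ± 0.28, adjusted p = 0.00159).

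Ltbp1 (chr17:75005568-75392512), a main carrier of latent TGF-beta, was instead a luminal gene. It was at 54.2, 245 and 328 CPM in HSL, 232, 381 and 556 CPM in AP and 16.6, 21.6 and 45.3 CPM in basal libraries. Every luminal library exceeded every basal one, by 7.79-fold for HSL (2.96 ± 0.40, adjusted p = 5.32e-06) and 14-fold for AP (3.81 ± 0.42, adjusted p = 6.96e-07). HSL was not called below AP (-0.84 ± 0.38, adjusted p = 0.0848), and was when blocking on the sample number (adjusted p = 0.00768), being lower in 6 of 6 samples. Ltbp3, the third carrier, was abundant throughout, averaging 551 ± 120 CPM in HSL, 793 ± 103 in AP and 873 ± 138 in basal libraries. Its HSL level was 1.58-fold below basal (adjusted p = 0.00099) and 1.44-fold below AP (adjusted p = 0.00946, but 0.0528 without sample 4). AP against basal was not called for Ltbp3 (-0.14 ± 0.15, adjusted p = 0.487). Per kilobase of exon, Ltbp3 led in HSL at 60.8 ± 13.2 CPM per kb, followed by Ltbp1 at 20.3 ± 10.6, and in AP at 87.5 ± 11.3, followed by Ltbp1 at 36.5 ± 11.5. In basal libraries Ltbp2 led at 212 ± 53.8, ahead of Ltbp3 at 96.2 ± 15.2 and Ltbp4 at 91.6 ± 13.5, which lay within their spread of each other, while Ltbp1 was at 2.61 ± 1.19.

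**Figure D3:**
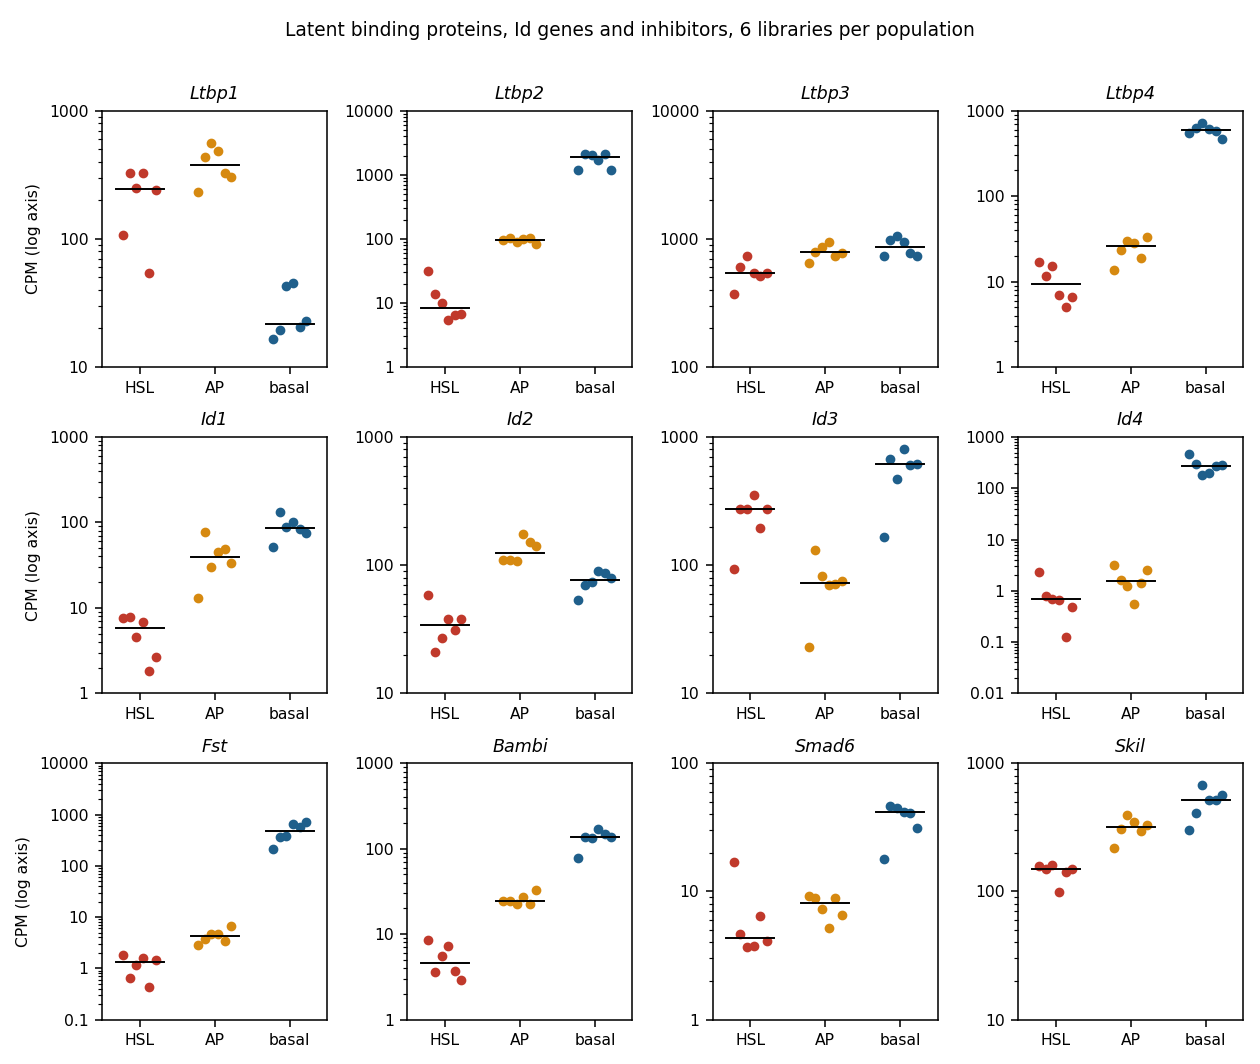
CPM (log axis) of the 4 latent TGF-beta binding proteins, the 4 Id genes and 4 inhibitors in each library, as points, for HSL, AP and basal from left to right within a panel, with samples 1 to 6 from left to right within a population and bars at the medians. Ltbp1 is the only one of its family with every luminal library above every basal one, and among the Id genes Id2 peaks in AP (median 125 CPM) while Id4 is at medians of 0.682, 1.53 and 279 CPM in HSL, AP and basal.

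Among the antagonists and inhibitors tested, Fst, Bambi and Skil were each called lower in HSL than in AP, and in AP below basal. Fst (chr13:114452290-114458951) encodes follistatin, which binds and blocks activins and, less tightly, some BMPs. It was at 0.439, 1.33 and 1.83 CPM in HSL, 2.91, 4.19 and 6.81 CPM in AP and 215, 479 and 709 CPM in basal libraries. None of the populations overlapped, with HSL 402-fold below basal (-8.65 ± 0.43, adjusted p = 3.43e-11), AP 111-fold below basal (-6.80 ± 0.40, adjusted p = 2.78e-10) and HSL 3.61-fold below AP (-1.85 ± 0.34, adjusted p = 0.000298). The activin subunit gene Inhbb and Fst were thus on opposite sides of the luminal and basal divide.

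Bambi, a membrane pseudoreceptor without a kinase domain, was at 2.88, 4.61 and 8.57 CPM in HSL, 22.3, 24.6 and 32.7 CPM in AP and 77.2, 137 and 172 CPM in basal libraries. Its 3 populations were also fully separate, with HSL 25.5-fold below basal (-4.67 ± 0.27, adjusted p = 1.62e-10), AP 5.22-fold below basal (-2.38 ± 0.25, adjusted p = 2.95e-07) and HSL 4.88-fold below AP (-2.29 ± 0.25, adjusted p = 1.57e-06). Skil encodes SnoN, a nuclear repressor of Smad2 and Smad3 targets; it averaged 143 ± 22.5 CPM in HSL, 316 ± 58.8 in AP and 499 ± 130 in basal libraries. HSL was 3.48-fold below basal (-1.80 ± 0.18, adjusted p = 1.47e-07) and 2.21-fold below AP (-1.14 ± 0.18, adjusted p = 6.96e-05), and AP 1.58-fold below basal (-0.66 ± 0.18, adjusted p = 0.00546).

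Chrd, Nog and Grem1 encode the BMP-trapping proteins chordin, noggin and gremlin, and all were scarce. Chrd averaged 2.06 ± 0.675 CPM in HSL, 0.53 ± 0.352 in AP and 2.26 ± 1.02 in basal libraries, so AP was the low population, below basal by 4.25-fold (-2.09 ± 0.50, adjusted p = 0.00232) and with HSL 3.87-fold above it (1.95 ± 0.50, adjusted p = 0.00462). Nog had 2 reads in all HSL libraries together and 2 in all AP libraries, against 8 to 78 reads in each basal library and 270 in all, where it averaged 0.857 ± 0.472 CPM. Each basal library had more Nog CPM than any luminal one, and the gene was not tested. Grem1 had no read in the HSL libraries, which over their summed depth allows up to 0.012 CPM from counting error alone, 1 read in the AP and 10 in the basal libraries, all 10 in 1 library.

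**Figure D4:**
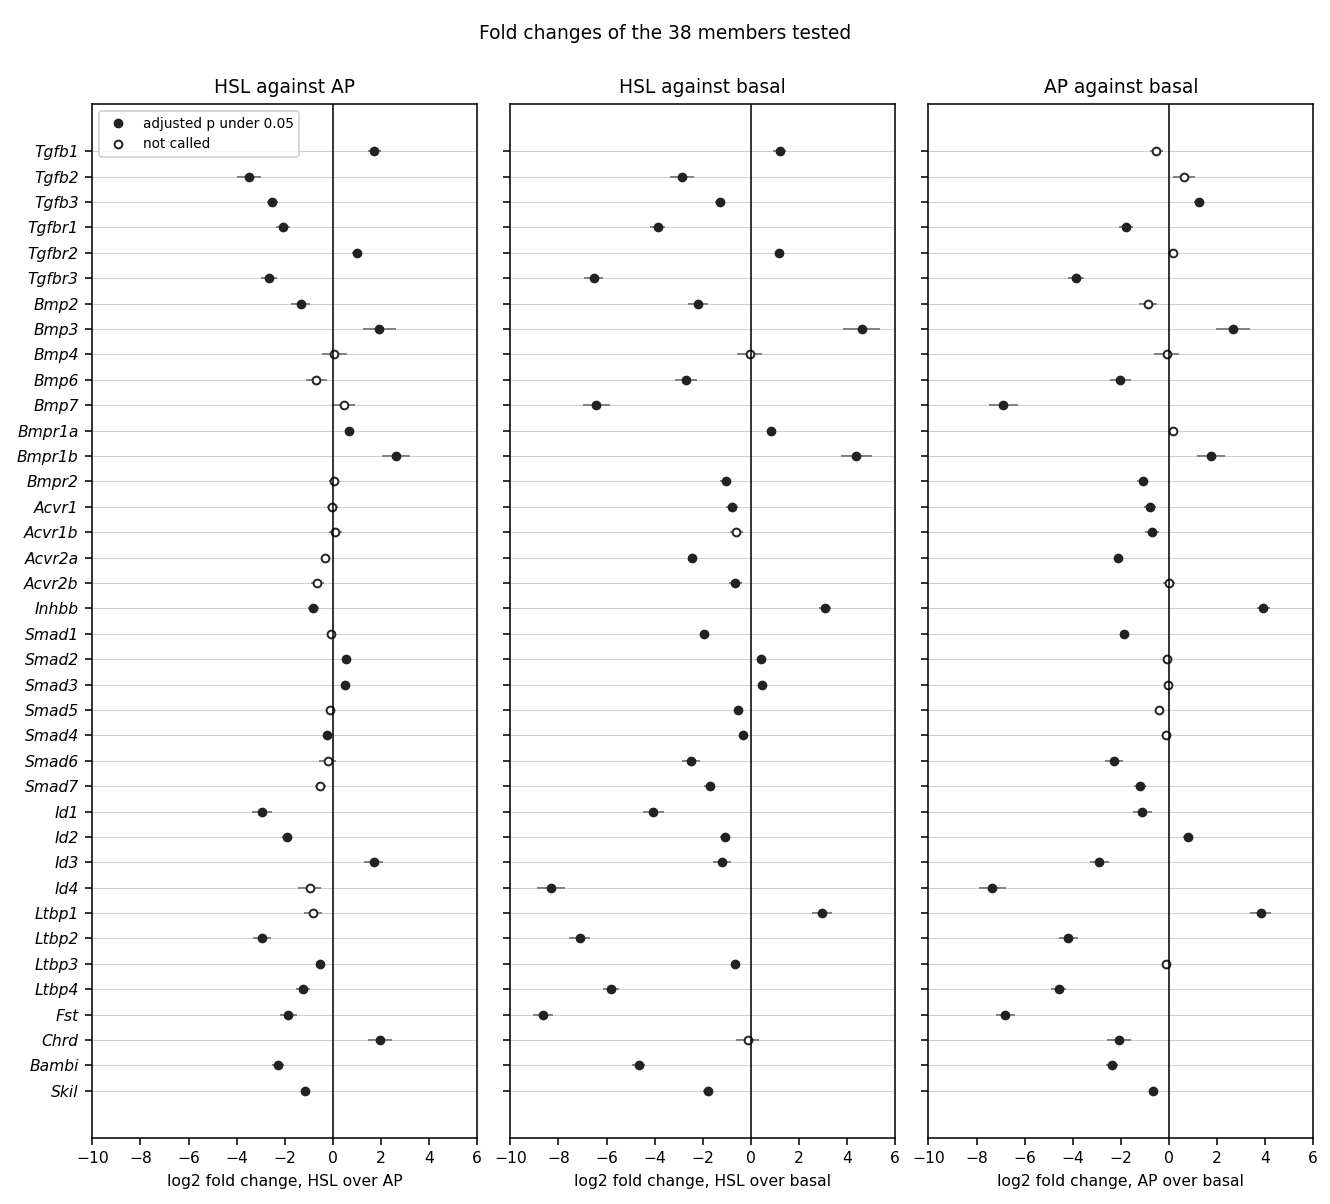
Log2 fold change (points) with its standard error (bars) for the 38 members tested, in HSL against AP, HSL against basal and AP against basal; filled points had an adjusted p under 0.05. Points to the left of 0 are lower in the first-named population: 15, 26 and 20 filled points lie there in the 3 panels, and 9, 9 and 6 to the right.

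Transcripts of other cell types moved with part of this pattern. The summed level of 9 fibroblast markers was 40.4 to 111 CPM in HSL, 618 to 1582 CPM in AP and 694 to 1104 CPM in basal libraries. All 9 were called lower in HSL against both, and 3 were at 0 in at least 1 HSL library. Between AP and basal, 4 of the 9 were called higher in AP and 1 lower. Endothelial markers, 8 in all, summed to 80.5 to 208 CPM in HSL, 43 to 103 in AP and 83.7 to 265 in basal libraries, and leukocyte markers, 7 in all, to 5.8 to 136, 10.4 to 98.7 and 68 to 337 CPM. Vwf made up much of the endothelial sum, at means of 103 CPM in HSL, 29.2 in AP and 54.9 in basal libraries; the other 7 were called lower in HSL than in basal, and all 8 lower in AP than in basal. Pericyte markers, 6 in all, summed to 77.8 to 155, 95 to 207 and 69 to 106 CPM. Most of the luminal pericyte sum was Notch3, at means of 104 CPM in HSL and 115 in AP, against 11 in basal libraries, while 5 of the 6 markers were called lower in HSL than in basal and 4 of the 6 lower in AP than in basal. Erythroid markers, 4 in all, summed to 8.54 to 29.7 CPM in HSL, 11.8 to 61.6 in AP and 58 to 236 in basal libraries. The 3 tested were called lower in HSL and in AP than in basal. Schwann markers, 4 in all, summed to 111 to 125, 291 to 657 and 191 to 265 CPM in the same order, mostly from Sox10 and Mbp. Against basal, 2 of the 4 were called higher and 2 lower in AP, and 1 higher and 3 lower in HSL. Adipocyte markers, 4 in all, summed to at most 2.12 CPM in HSL, 4.29 in AP and 9.78 in basal libraries. The part of these cells in the levels of secreted members such as Tgfb2, Tgfb3, Ltbp2 and Fst was not tested.

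Outside the 41 members, 69 further genes of the pathway were listed and 54 tested. In HSL, 8 stood above basal and 31 below (72.2% called, against 58.4% of all genes). In AP, 9 stood above basal and 25 below (63%, against 44.7%). Between HSL and AP, 7 stood above AP and 19 below (48.1%, against 39.9%). By role, 10 of 11 tested extracellular regulators were called lower in HSL than in basal, as were 30.6% of all genes, and none higher. Fstl1, a follistatin-related secreted protein, averaged 3.15 ± 1.51 CPM in HSL, 28.3 ± 8.69 in AP and 522 ± 74.4 in basal libraries, with HSL lower than basal by 166-fold (-7.37 ± 0.35, adjusted p = 1.86e-11). Fstl3, a close relative of follistatin that also binds activin, averaged 5.74 ± 1.45, 6.06 ± 1.29 and 72.5 ± 20.6 CPM in the same order, though other genes overlap 47.3% of its exon bases. Twsg1, a chordin cofactor, was present throughout at 286 ± 19.4, 264 ± 26.7 and 638 ± 33.1 CPM. Bmp1, a protease that cleaves chordin and not a BMP ligand, was lowest in AP as Chrd was, at 128 ± 20.5, 47.9 ± 11.4 and 193 ± 24.7 CPM, with HSL 2.68-fold above AP (1.42 ± 0.16, adjusted p = 2.04e-06).

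Genes that hold the latent complex of TGF-beta or release TGF-beta from it were also uneven. Of 10 tested, 2 were called higher in HSL than in basal (27.8% of all genes were) and 5 lower (30.6%). In AP, 1 was called higher than in basal (21.5%) and 6 lower (23.1%). Itgb8, an integrin subunit that activates latent TGF-beta, averaged 4.62 ± 2.59 CPM in HSL, 73 ± 11 in AP and 116 ± 39.2 in basal libraries, with HSL 15.7-fold below AP (-3.98 ± 0.33, adjusted p = 1.65e-07) and 25-fold below basal (-4.64 ± 0.34, adjusted p = 2.24e-09). Fbn1, the microfibril protein fibrillin-1 to which latent complexes attach, averaged 1.49 ± 0.987, 15.7 ± 7.32 and 200 ± 54.2 CPM. Mmp14, a membrane protease, averaged 351 ± 35.6 CPM in HSL and 181 ± 29.4 in AP, against 355 ± 42.8 in basal libraries, and was lower in AP than in basal (-0.98 ± 0.12, adjusted p = 3.17e-06).

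Of 8 other textbook target genes tested, 5 were called lower in HSL than in basal (30.6% of all genes were) and 2 higher (27.8%). Msx2, a homeobox gene induced by BMPs, averaged 122 ± 20.7 CPM in HSL, 29.5 ± 10.9 in AP and 3.77 ± 1.23 in basal libraries. Its populations did not overlap, and HSL was 32.2-fold above basal (5.01 ± 0.30, adjusted p = 1.82e-10), the reverse of Id1, Id4 and Smad6. Ctgf, a matricellular target of TGF-beta, averaged 1.28 ± 1.05 CPM in HSL, 7.18 ± 1.22 in AP and 604 ± 347 in basal libraries, with other genes over 44.9% of its exon bases. Among intracellular regulators, Pmepa1, a membrane inhibitor induced by TGF-beta, averaged 242 ± 40.4, 524 ± 145 and 799 ± 275 CPM in HSL, AP and basal libraries, with HSL called below basal (adjusted p = 1.37e-05) and AP not (adjusted p = 0.0564). Tgif1, a homeodomain corepressor of Smad targets, was luminal, at 269 ± 49.5 and 326 ± 78.6 CPM in HSL and AP, against 117 ± 25.6 CPM in basal libraries, with adjusted p-values of 1.85e-05 and 3e-06 against basal.

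Among the remaining receptors and ligands, Acvrl1, a type I receptor known from endothelium, averaged 12.8 ± 2.41 CPM in HSL, 43.3 ± 13 in AP and 34.1 ± 9.41 in basal libraries, with HSL below both. Cd109, a surface protein that binds TGF-beta, averaged 0.439 ± 0.349, 1.73 ± 1.01 and 23.1 ± 8.11 CPM in HSL, AP and basal libraries. Amhr2, the type II receptor for anti-Muellerian hormone, was low but highest in AP, at 0.216 ± 0.16, 1.61 ± 0.532 and 0.195 ± 0.173 CPM, with AP 7.94-fold above basal (2.99 ± 0.66, adjusted p = 0.0011). Gdf10 averaged 0.145 ± 0.111 CPM in HSL, against 2.15 ± 0.85 in AP and 1.49 ± 0.737 in basal libraries, with HSL 14.9-fold below AP (-3.90 ± 0.49, adjusted p = 7.44e-06).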

How the data were processed

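RNA was sequenced from sorted mammary epithelium of MMTV-Cre mice, in 18 libraries made with Smart-Seq v4 and Nextera XT, a kit that does not mark the strand, per the labels' protocols. The authors deposited whole-number counts per gene. The submitters' processing notes give the build as GRCm38, with neither aligner nor counter given in the sources used here. GENCODE M21 was used for names and positions: of 52636 identifiers 52489 matched it, and the 147 others (0.00303 to 0.00677% of counts) were left out. The deposited gene widths equal the genomic span for 85.6% of genes, so reads from introns may be counted, and genes that overlap others lose reads; shares of overlap are from GENCODE M21. Groups are the populations in the titles.

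The main tests used edgeR 4.0.16 (R 4.3.3): filterByExpr by population with a minimum count of 10, TMM factors, 1 robust quasi-likelihood fit over all 18 libraries with population as the term, and Benjamini-Hochberg adjustment over 16471 genes at 0.05. CPM uses the TMM-scaled totals. On simulated counts 76.5% of 98 genes with 4-fold changes and 42.9% of 98 with 2-fold changes were recovered in AP against basal, where 3.31% of calls were false. These were the only changed genes among 16183 simulated, whereas 44.7% of the real genes were called. The recovery rates therefore do not measure the power of the main tests. Alternatives were DESeq2 1.42.0, limma-voom (limma 3.58.1), other scalings, no filter, a block for the sample number, samples left out, and samples 1 to 3 or 4 to 6 alone, which have separate runs of identifiers in the deposited names. Libraries of the same number deviated together from their population means (r from 0.127 to 0.63 across genes in 18 of 18 pairs). For samples 1 to 5 the closest library had the same number in every pair of populations. For sample 6 the closest library had another number, 4 for HSL with AP and with basal, and 5 for AP with basal. The pairing of sample 6 therefore rests on the titles, and the main fit used no pairing. Promoter windows are RefSeq's (28 of 41 members matched by symbol).

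The 41 members and the lists were chosen with earlier results of these data known. Members were given library by library where a call had a fold of at least 4 and a mean of at least 5 CPM in the higher population; Tgfb1, Tgfbr2 and Id2, which fall outside that rule, were given so after their values were seen. Of other pathway genes, those named have 1 of the 2 smallest adjusted p-values in their role and comparison. The limit given for Grem1 covers counting error only, whereas SDs and standard errors include the spread between libraries.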

Additional observations from a re-analysis of the deposited data

Results flagged for a closer look

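Of 114 sets of 6 libraries (38 members in 3 populations), 11 held a library whose gap to the nearest other passed Dixon's 95% limit as a share of the whole range. For independent sets of normally distributed values chance gives about 1 in 20. These sets share the same 18 libraries and hold untransformed CPM, so that rate is only a guide here. Sample 1 gave 8 of the 11. Its HSL library was the highest of its population for Tgfb2, at 15.1 CPM against 1.01 to 4.35 in the other 5, for Bmp7, at 7.97 against 1.27 to 2.54, for Smad6, at 16.9 against 3.66 to 6.46, for Id4, at 2.31 against 0.125 to 0.798, and for Ltbp2, at 32.1 against 5.39 to 13.6 CPM. All 5 are genes that stood low in HSL, and the summed basal markers of that library were 159 CPM against 32.8 to 64.6 in the others. Its summed AP markers were also the highest, at 685 CPM against 185 to 489. So were its leukocyte (136 against 5.8 to 83.2), fibroblast (111 against 40.4 to 97.1) and endothelial markers (208 against 80.5 to 195). Its pericyte and erythroid sums lay within the range of the others, and its Schwann sum was the lowest. The part of any of these in the values was not tested. The same library was the lowest of its population for Bmpr1a, at 244 CPM against 344 to 389. Sample 1 was also the lowest AP library for Tgfbr3, at 25.7 CPM against 50.6 to 60.9, and the highest basal library for Id4, at 474 CPM against 186 to 293.

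The other 3 came from different samples. Bmp3 reached 51.6 CPM in the AP library of sample 2, against 1.65 to 15.2 in the other 5. Tgfbr3 reached 988 CPM in the basal library of sample 3, against 630 to 728. Skil stood at 99.2 CPM in the HSL library of sample 4, against 142 to 160.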

How the results depend on the processing

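Directions of called members held under every alternative tried, except for Acvr2b in HSL against basal, which had a log2 fold change of -0.64 over all samples and 0.07 in samples 1 to 3 alone; the cause was not tested. Calls were less stable than directions. Those kept under every alternative were 15 of 26 for AP against basal and 24 of 35 for HSL against basal. For HSL against AP they were 9 of 24. Most losses came with samples 1 to 3 alone, 3 libraries a population, where 33 calls were lost besides that of Acvr2b. There, AP had 4 members above basal and 13 below. HSL had 6 above basal and 19 below, and 1 above AP and 8 below. Leaving out 1 sample number at a time gave 5 to 7 members higher and 17 to 20 lower in AP than in basal, 8 to 9 higher and 24 to 27 lower in HSL than in basal, and 7 to 9 higher and 13 to 20 lower in HSL than in AP. The highest counts below basal, both without sample 1, include Nog, which passed the filter there; over the 38 tested they are 19 in AP and 26 in HSL. The replicate block gave 6 and 22, 9 and 26, and 9 and 18 in the same order, and changed no call other than those given with the results and that of Acvr1b, called lower in HSL than in basal under the block (adjusted p = 0.0324). Counts with a fold of at least 2 were 5 and 17, 6 and 21, and 6 and 12. Scaling by library totals alone shifted the median of all genes to 0.136 (AP against basal), -0.100 (HSL against basal) and -0.185 (HSL against AP), compared with -0.001, -0.064 and -0.011 under TMM factors, and lost the calls of Acvr1b in AP against basal, Acvr2b in HSL against basal, and Bmp3 and Smad3 in HSL against AP, and gained 4 others. Depth limits Nog, Grem1, Chrd and the BMP ligands other than Bmp3 and Bmp7, which had at most 561 reads in any library.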
